A study of Mus musculus with 4 samples.

Results

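Sox5 positive B cells are lung cells that held transcripts of B cell genes together with at least 1 transcript of Sox5. They were selected on their own measured UMIs: a barcode needed 500 or more genes, no more than 15% mitochondrial transcripts, at least 1 unique transcript (UMI) of each of 3 or more of Bank1, Pax5, Ighm, Btla, Ikzf3 and Ms4a1, and at least 1 UMI of Sox5. Barcodes with 3 or more of the endothelial genes Cdh5, Ptprb, Pecam1, Tek and Calcrl, or with 2 or more of the T cell genes Cd3e, Cd3g and Themis, were left out. The rule found 138 cells among 16541 kept cells, and 265 further cells met every condition except Sox5 and are called Sox5 negative B cells. The Cre_Pos pool held 35 Sox5 positive and 145 Sox5 negative B cells, and the Cre_Neg pool held 103 and 120. Since the cells were chosen by their UMIs of these genes, the levels of these genes are described below without a test.

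Cells came from 2 pooled suspensions of whole lung from C57Bl6/J mice at 8 weeks of age. Cre_Pos was the pool of 6 mice that carried Shh-Cre with a Trp73 allele whose exons 7 to 9 are floxed, and Cre_Neg was the pool of 6 littermates without Cre that were homozygous for the floxed allele. Shh-Cre is active in lung epithelium, and no source used here describes Cre activity in B cells. Beads removed CD45 positive cells from both pools and raised the share of EpCAM positive ones before a sort for live cells, so the B cells described here are those that remained after a depletion of their own surface marker. RNA was counted by SPLiT-seq, in which fixed cells are barcoded in rounds of wells, and each of 4 sublibraries mixed both pools. The sublibraries, also called replicates 1 to 4, are aliquots of the same 2 suspensions and not separate animals.

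Sox5 is a transcription factor of the SoxD group, which binds DNA through a high mobility group box and has no activation domain of its own. It is best known from cartilage, neurons and glia, and in human blood it has been described in memory-like B cells with an atypical surface. In the mouse, follicular B cells recirculate through lymph nodes and carry IgD and CD23, whereas B-1 cells and marginal zone cells are innate-like B cells that respond rapidly and populate body cavities, mucosal surfaces and the spleen. Lung tissue holds B cells of several of these kinds.

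The table held 191160309 UMIs over 57010 genes and 647296 barcodes, of which 8748 Cre_Pos and 7793 Cre_Neg barcodes were kept, against 20000 cells stated by the study. Sox5 positive B cells had a median of 6265 UMIs (2909 to 20109) in Cre_Pos and 7927 UMIs (887 to 21599) in Cre_Neg. Sox5 negative B cells had medians of 5060 and 4393.5 UMIs, so the Sox5 positive cells were the deeper class in both pools. The class sums were 243702 and 861533 UMIs for Sox5 positive cells, and 798386 and 598217 UMIs for Sox5 negative cells, in Cre_Pos and Cre_Neg. Of 16254 well combinations carried by kept cells, 283 occurred in more than 1 sublibrary, where the sublibrary index keeps them apart. Trp73, the floxed gene, had 1104 UMIs in kept Cre_Pos cells and 7022 in kept Cre_Neg cells. In Sox5 positive B cells it had 0 UMIs in Cre_Pos and 8 UMIs, in 2 cells, in Cre_Neg, and in Sox5 negative B cells it had 0 and 6, so almost none of this transcript was in B cells of either pool. UMIs from outside the floxed exons also count, and no value here shows whether the allele was recombined.

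Levels are given as CPM, the UMIs of a gene in every 1000000 UMIs of the class. The label was checked against markers of B cells and of the other cells that the suspension could hold. All 6 B cell genes were present in 120 of the 138 cells, 16 cells had 5 of them, and 1 cell each had 4 and 3. Just outside the rule, 9 Sox5 positive cells with 2 of the 6 genes were not taken, the endothelial limit removed 19 cells and the T cell limit removed 3. These genes, and the endothelial and T cell genes below, were used by the rule, so their levels describe the selection and do not check it. Summed, the 6 genes stood at 11764 CPM in Cre_Pos and 11495 CPM in Cre_Neg, against 11881 and 11528 CPM in Sox5 negative B cells. Of B cell genes that the rule did not use, Blk, a B cell kinase, had UMIs in 31 of 35 Cre_Pos and 92 of 103 Cre_Neg cells, Pou2af1, a B cell coactivator, in 27 and 82, and Cd79a in 25 and 70. The endothelial genes summed to 800 and 802 CPM, against 894 and 866 CPM, and came nearly all from Pecam1 and Calcrl, while Cdh5 had 1, Tek 3 and Ptprb 5 UMIs in all Sox5 positive cells. Calcrl was higher in the Sox5 positive class in both pools, at 98.5 and 142 CPM against 91.4 and 78.6 CPM. T cell markers summed to 4.10 and 4.64 CPM in Sox5 positive cells, with Cd3e and Themis at 0, against 212 and 26.7 CPM in Sox5 negative cells. Markers of plasmacytoid dendritic cells summed to 12.3 and 6.96 CPM, with Siglech, Cox6a2 and Klk1 at 0, against 35.1 and 212 CPM, and those of monocytes to 16.4 and 4.64 CPM, against 41.3 and 144 CPM. These 3 lists were lower in the Sox5 positive class in both pools. So were the endothelial list and those of dendritic cells, neutrophils, ciliated, secretory and alveolar type 1 cells. The plasma cell, alveolar type 2, interstitial macrophage, alveolar macrophage, neuroendocrine and fibroblast lists were not lower in both pools. Natural killer cell markers had no UMIs in either class of Cre_Neg, and pericyte markers none in either class of Cre_Pos. Alveolar macrophage markers summed to 8.21 and 6.96 CPM, against 1.25 and 18.4 CPM. Neuroendocrine markers summed to 4.10 and 1.16 CPM, against 1.25 and 3.34 CPM. Plasma cell markers summed to 45.1 and 62.7 CPM, with Tnfrsf17 at 0, against 36.3 and 28.4 CPM. Alveolar type 2 markers summed to 242 and 299 CPM, with 2 or more of the 5 markers in 9 of 35 and 30 of 103 cells. In Sox5 negative cells these markers summed to 219 and 199 CPM, with 2 or more in 19 of 145 and 14 of 120 cells. Interstitial macrophage markers summed to 53.3 and 46.4 CPM, with C1qa, C1qb and C1qc at 0, against 32.6 and 63.5 CPM. The part of these markers in the results below was not tested. The cells carried B cell genes beyond those that chose them.

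Among the genes of the rule, Ms4a1, which encodes CD20, stood at 886 CPM in Cre_Pos and 882 CPM in Cre_Neg in Sox5 positive cells, against 405 and 543 CPM in Sox5 negative cells. Ighm, the heavy chain of IgM, stood at 1707 and 1646 CPM, against 1036 and 1192 CPM. Btla, an inhibitory receptor, stood at 1055 and 628 CPM, against 1452 and 1449 CPM. Bank1, a scaffold of B cell receptor signalling, was at 4025 and 5368 CPM against 4900 and 4799 CPM, which overlap. Pax5, the factor that maintains B cell identity, was at 2413 and 1870 CPM against 2581 and 2195 CPM. These values overlap across the pools, but within each pool Pax5 was slightly lower, with log2 ratios of -0.10 in Cre_Pos and -0.23 in Cre_Neg.

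Sox5 was not spread evenly over the 138 cells. They held 4706 Sox5 UMIs, from 1 to 191 a cell, with a median of 13.5. The median was 5 UMIs in Cre_Pos (1 to 173) and 29 UMIs in Cre_Neg (1 to 191). A limit of 8 UMIs, chosen after the values were seen, separated 81 cells with 8 or more, which held 96.3% of all Sox5 UMIs with a median of 45 a cell, from 57 cells with 1 to 7. Cre_Pos had 9 cells above the limit and 26 below it, and Cre_Neg had 72 and 31. At the edge of the rule itself, 14 cells were members through a single Sox5 UMI, 5 in Cre_Pos and 9 in Cre_Neg. Most Sox5 RNA of the class thus lay in a subset of the cells.

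**Figure D1:**
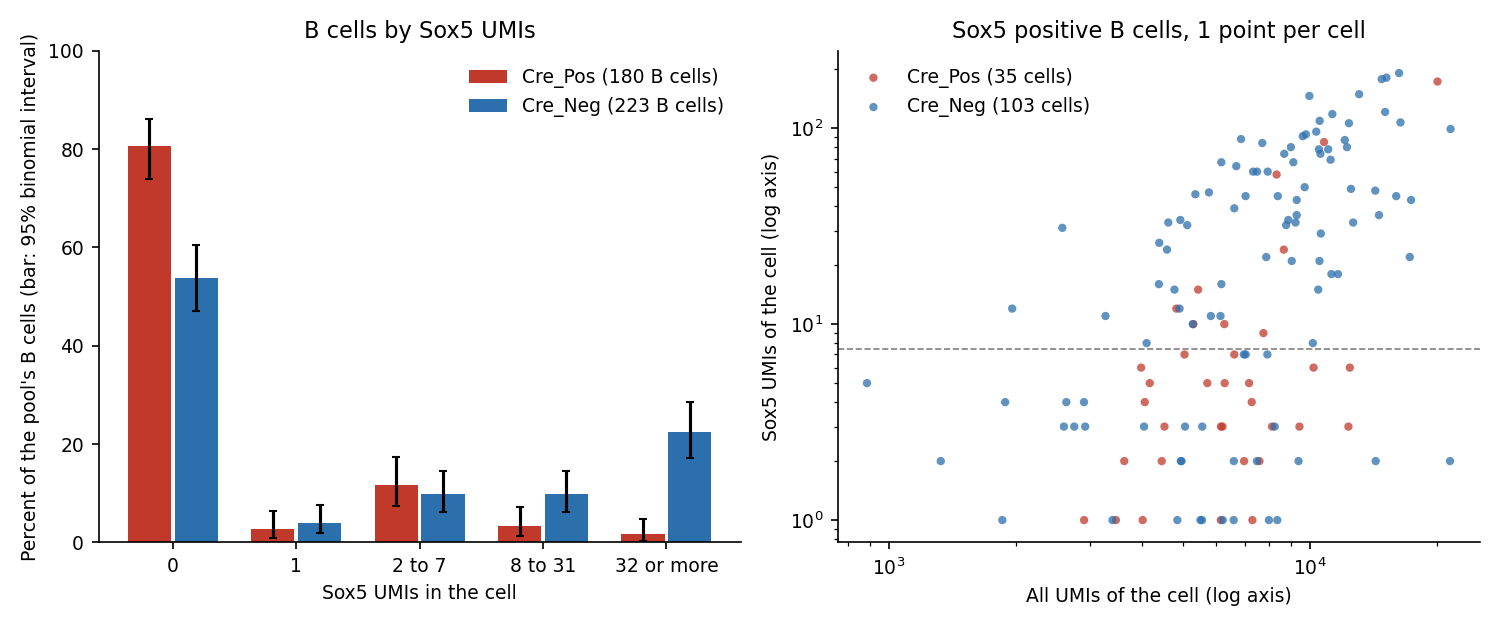
Left, the percent of the B cells of the Cre_Pos and Cre_Neg pools in each bin of Sox5 UMIs, with exact 95% binomial intervals; right, Sox5 UMIs against all UMIs of each of the 138 Sox5 positive B cells on log axes, with a dashed line below 8 UMIs. Above the line lie 9 of 35 Cre_Pos cells and 72 of 103 Cre_Neg cells.

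Summed over the class, Sox5 stood at 1998 CPM (interval 1825 to 2184) in Cre_Pos and 4897 CPM (4750 to 5047) in Cre_Neg. Intervals are exact 95% intervals and cover counting error only, here and below. In sublibraries 1 to 4 the Cre_Pos values were 3214, 1912, 931 and 1026 CPM, and the Cre_Neg values were 5639, 4598, 4385 and 4616 CPM. Every Cre_Pos sublibrary lay below every Cre_Neg sublibrary, and the Cre_Pos values varied more, on 277, 115, 48 and 47 Sox5 UMIs. Of these UMIs 173, 85, 24 and 15 came from a single cell of each sublibrary. In Cre_Neg the largest cells held 146, 191, 149 and 107 of 1603, 1214, 833 and 569 UMIs. Differences between cells are not covered by the intervals.

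The comparison of the pools asked whether Sox5 positive cells made up a different part of the B cells with Shh-Cre. They were 19.4% (interval 13.9 to 26.0) of the 180 Cre_Pos B cells and 46.2% (39.5 to 53.0) of the 223 Cre_Neg B cells, a share 2.38-fold lower (1.60 to 3.59). In sublibraries 1 to 4 the shares were 22.6%, 14.5%, 17.8% and 25.9% in Cre_Pos, and 47.8%, 55.2%, 44.4% and 33.3% in Cre_Neg. The groups of sublibraries did not overlap, though the 4 Cre_Pos values rest on 12, 8, 8 and 7 cells. Of kept cells of all kinds, Sox5 positive B cells were 0.400% (0.279 to 0.556) in Cre_Pos and 1.32% (1.08 to 1.60) in Cre_Neg, 3.30-fold lower (2.23 to 5.00). Sox5 negative B cells differed little over the same denominator, with a log2 ratio of Cre_Pos over Cre_Neg of 0.11 (-0.25 to 0.47). With 1 pool for each genotype there is no test of the genotype, and differences between individual mice cannot be told apart from it.

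The difference between pools lay in the cells with high Sox5. Cells with 8 or more Sox5 UMIs were 5.00% (2.31 to 9.28) of B cells in Cre_Pos and 32.3% (26.2 to 38.9) in Cre_Neg, 6.46-fold lower (3.22 to 14.7). In sublibraries 1 to 4 these shares were 7.55%, 3.64%, 2.22% and 7.41% in Cre_Pos, and 42.0%, 29.3%, 29.6% and 23.8% in Cre_Neg, again without overlap. Cells with 32 or more Sox5 UMIs were 3 in Cre_Pos, 1.67% (0.345 to 4.79) of B cells, and 50 in Cre_Neg, 22.4% (17.1 to 28.5). Cells with 2 to 7 Sox5 UMIs, by contrast, were 11.7% of B cells in Cre_Pos and 9.87% in Cre_Neg, and cells with exactly 1 were 2.78% and 4.04%. When every cell was thinned to 2000 UMIs to remove the difference in depth, Sox5 was seen in 15.4% of Cre_Pos and 41.3% of Cre_Neg B cells, 2.68-fold lower (1.72 to 4.30).

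**Figure D2:**
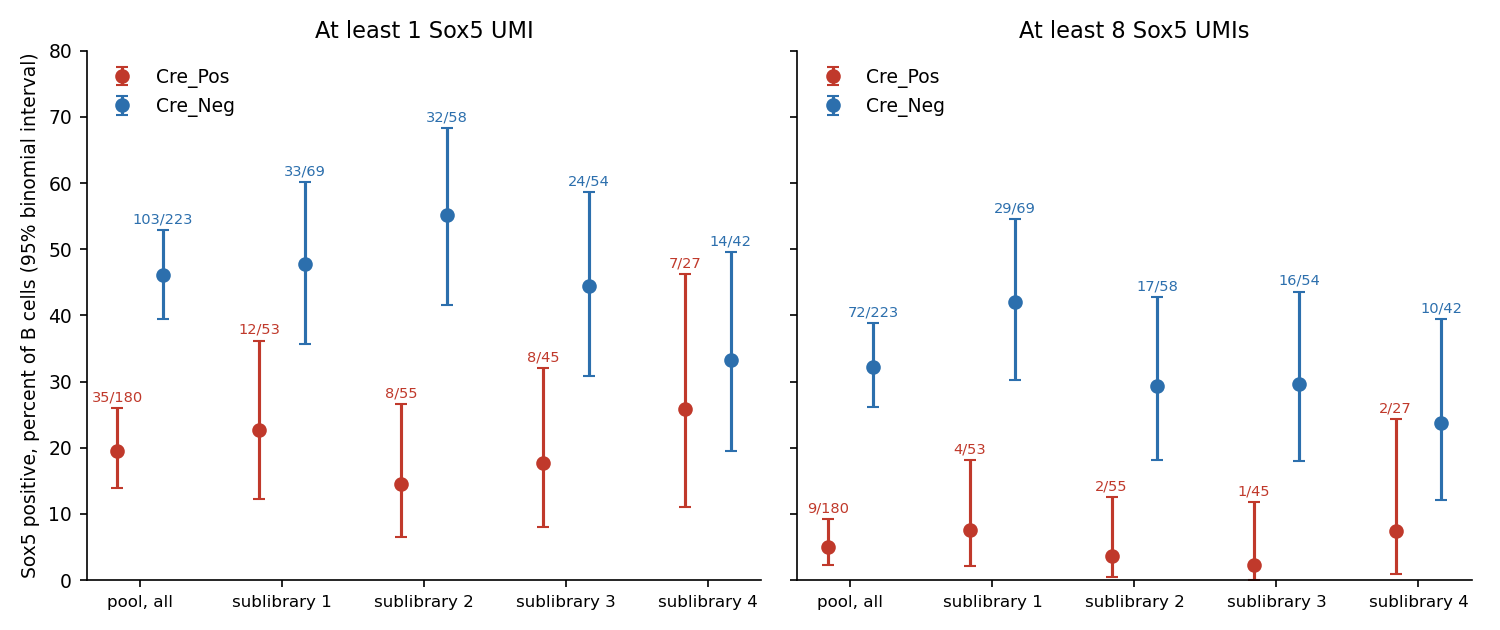
Share of B cells, in percent, with any Sox5 UMI (left) and with 8 or more Sox5 UMIs (right) in the Cre_Pos and Cre_Neg pools and in each of the 4 sublibraries, with exact 95% binomial intervals and cell numbers. Shares of Sox5 positive cells are 19.4% in Cre_Pos and 46.2% in Cre_Neg, and shares of cells with 8 or more UMIs are 5.00% and 32.3%.

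The pools also differed in other ways that touch these shares. Blood endothelium was 64.8% of kept Cre_Pos and 35.2% of kept Cre_Neg cells, so shares of all kept cells move with the yield of other classes. Cells with Y-linked but no Xist UMIs were 6.85% of the kept cells with a call in Cre_Pos and 17.6% in Cre_Neg. Among Sox5 positive B cells with a call they were 0 of 28 (0 to 12.3%) in Cre_Pos and 34 of 94 (36.2%, 26.5 to 46.7) in Cre_Neg. Among Cre_Neg B cells with Y-linked UMIs only, 72.3% (57.4 to 84.4) were Sox5 positive, against 0 of 4 in Cre_Pos. Among B cells with Xist UMIs only, 19.0% (28 of 147) were Sox5 positive in Cre_Pos and 43.8% (60 of 137) in Cre_Neg, and 4.76% and 28.5% had 8 or more Sox5 UMIs. The lower share in Cre_Pos was thus also present within cells of female mice, where the number of contributing animals is not known. The cells were spread over the first-round wells, with Sox5 positive B cells in 17 of 23 Cre_Pos wells and 22 of 22 Cre_Neg wells and no more than 4 and 10 in 1 well.

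Sox5 was compared across the cell classes of the lung, which were assigned from marker genes. Pericytes and smooth muscle had the highest level, at 8948 CPM (8590 to 9318) in Cre_Pos and 9057 CPM (8364 to 9793) in Cre_Neg, with Sox5 UMIs in all 35 and 12 cells. Fibroblasts stood at 1427 and 1387 CPM. All B cells by markers, whether or not they had Sox5, stood at 466 CPM in Cre_Pos, below fibroblasts, and 2948 CPM in Cre_Neg, above them. The 1998 and 4897 CPM of the Sox5 positive B cells are those of cells selected on Sox5 and take no place in this order. Secretory cells at 325 and 323 CPM and alveolar type 1 cells at 269 and 352 CPM were lower still, and the values of these 2 classes overlapped. Alveolar type 2 cells at 86.0 and 83.6 CPM and endothelium at 91.4 and 75.4 CPM lay below the free RNA of barcodes with at most 50 UMIs, where Sox5 stood at 177 and 187 CPM. The level in fibroblasts, pericytes and secretory cells was close in both pools, while that in all B cells was lower in Cre_Pos, where fewer of them had Sox5. B cells were not the only class whose intervals did not overlap between pools. Alveolar type 1 cells and neuroendocrine cells (82.7 and 141 CPM) were also lower in Cre_Pos. Endothelium and ciliated cells (48.57 and 13.98 CPM) were higher there. Of these, the neuroendocrine and ciliated values also lay below the free RNA. The marker genes of fibroblasts summed to 0 and 38.3 CPM in Sox5 positive B cells, against 1.25 and 3.34 CPM in Sox5 negative B cells. Those of pericytes summed to 0 and 1.16 CPM, with every marker except Acta2 at 0, against 0 and 5.01 CPM. Of the 33 fibroblast marker UMIs in Cre_Neg Sox5 positive B cells, 32 lay in cells with 8 or more Sox5 UMIs. In that group 1 of 72 cells had 2 or more of the 5 fibroblast markers. The part of fibroblast RNA in the Sox5 level of these cells was not tested.

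**Figure D3:**
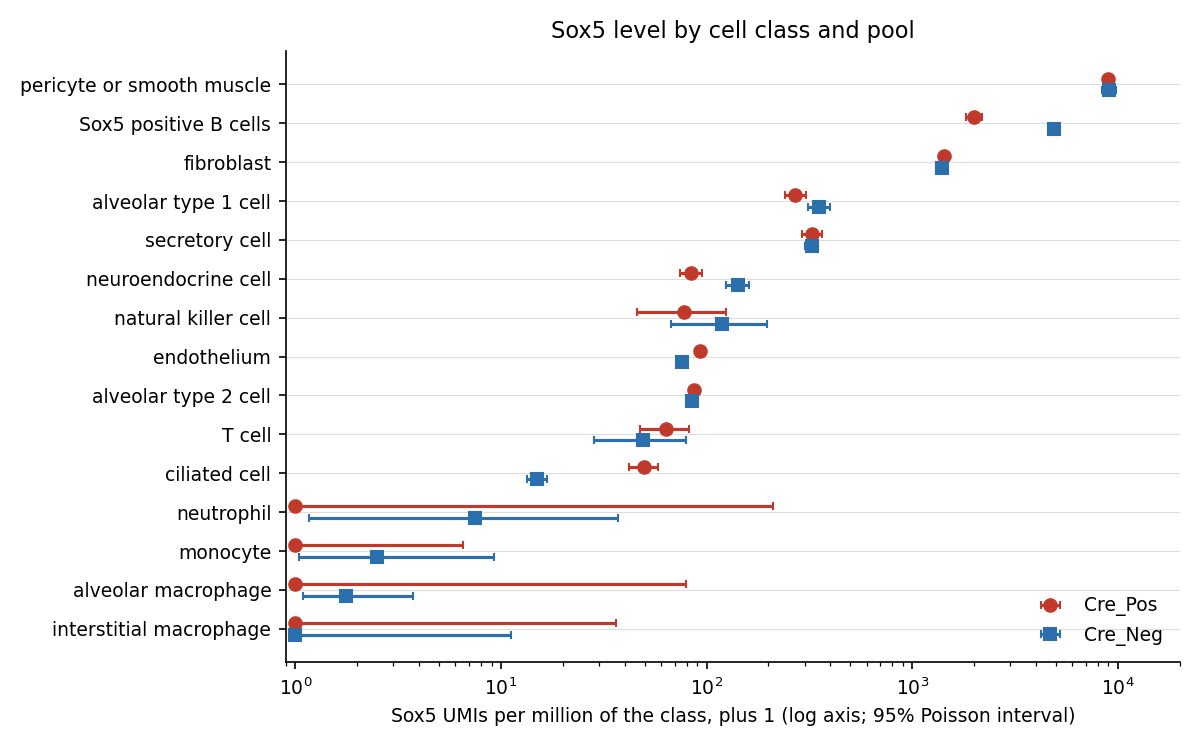
Sox5 level, in CPM plus 1 on a log axis, in each cell class with at least 40 cells and in Sox5 positive B cells, for the Cre_Pos and Cre_Neg pools with exact 95% Poisson intervals. Pericytes and smooth muscle stand at 8948 and 9057 CPM, and Sox5 positive B cells, which unlike the other classes were selected on Sox5, at 1998 CPM in Cre_Pos and 4897 CPM in Cre_Neg.

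Sox5 was also read in other blood cells. A Sox5 UMI was found in 0 of 74 Cre_Pos and 1 of 88 Cre_Neg monocytes, at median depths of 8841.5 and 7366 UMIs, and in 2 of 190 Cre_Neg alveolar macrophages at a median depth of 13653 UMIs (1.05%, 0.128 to 3.75). T cells had a Sox5 UMI in 15 of 127 Cre_Pos cells (11.8%, 6.76 to 18.7) and 3 of 63 Cre_Neg cells (4.76%, 0.993 to 13.3), at median depths of 6330 and 4813 UMIs, and natural killer cells in 6 of 44 and 3 of 24. The share of 46.2% among Cre_Neg B cells thus lay above the intervals of these T cells and myeloid cells. The share of 19.4% in Cre_Pos lay above those of the monocytes, but its interval overlapped that of Cre_Pos T cells. That share also lay within the interval of Cre_Pos natural killer cells (5.17 to 27.4). Shares of B cells with exactly 1 UMI, 2.78% and 4.04%, lie below the upper limits of the monocyte shares, 4.86% and 6.17%. In Cre_Pos, cells with 2 to 7 Sox5 UMIs were 11.7% of B cells (7.37 to 17.3). Any Sox5 UMI was found in 11.8% of T cells and 10.3% of endothelium of that pool. The part of free RNA in cells with few Sox5 UMIs was not tested. Over the 13 classes with at least 50 cells, the genes whose log2(CPM + 1) followed Sox5 most closely were Zfp68 (Pearson r = 0.88), Cobll1 (0.87), Ablim1 (0.85), Phykpl (0.85) and Rab30 (0.85). This is a description over 13 classes that share libraries and differ in depth.

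The next comparison asked what else Sox5 positive B cells expressed, against Sox5 negative B cells of the same pool. UMIs were summed over the cells of each class in each pool, and the 4 sums were fitted with edgeR's quasi-likelihood test with the pool as a block. Of 10556 genes with at least 10 UMIs over the 4 sums, 205 were higher (1.94%) and 215 lower (2.04%) in Sox5 positive cells at a Benjamini-Hochberg adjusted p under 0.05, which is 3.98% in all. The median log2 ratio of all genes tested was -0.02, and 396 of the 420 called genes had the same sign in both pools. DESeq2 on the same sums called 56 genes (0.531%), 38 higher and 18 lower, of which 54 were among the 420. Without sublibrary 1 the counts fell to 100 higher and 100 lower, and without the pool block to 43 and 23. Each class rests on 2 sums with 1 residual degree of freedom, and the fit shared the spread fully over all genes. A gene's own disagreement between the 2 pools thus did not enter its p-value. The p-values rest on the shared spread between these 2 pools and cover no other animals.

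Of the lists examined, B-1 cell genes had the most calls in 1 direction. Of 14 members tested, 9 were higher in Sox5 positive cells and none was lower, with a median log2 ratio of 1.88 against -0.02 over all genes; 10 members were higher and 1 lower at an unadjusted p under 0.05, and DESeq2 called 5 higher and none lower. The list was chosen with earlier results of these data known, so its direction is not independent evidence. The count of higher members ranged from 5 to 10 over 16 of 17 alternatives, and the exception, which took only cells without endothelial or T cell UMIs and left 7 Sox5 positive cells, 14 Sox5 negative cells and 6 members, called none.

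Ctla4, an inhibitory receptor best known from T cells, stood at 82.1 CPM in Cre_Pos and 137 CPM in Cre_Neg in Sox5 positive cells, against 2.51 and 6.69 CPM in Sox5 negative cells, 24.3-fold higher with an adjusted p of 2.98e-16 by edgeR's quasi-likelihood test. Within Cre_Pos the log2 ratio was 5.03 (2.99 to 8.18), and within Cre_Neg it was 4.36 (2.96 to 6.26). It was higher in the Sox5 positive class in 8 of 8 pairs of a pool and a sublibrary. Plscr1, a phospholipid scramblase, stood at 111 and 145 CPM against 11.3 and 5.01 CPM, 15.3-fold higher (adjusted p 2.98e-16). Fcrl5, an Fc receptor-like protein of innate-like B cells in the mouse, stood at 176 and 183 CPM against 7.52 and 28.4 CPM, 10.8-fold higher (adjusted p 3.07e-18). These 3 genes were called under all 16 alternatives in which they were tested. Zbtb32, a transcriptional repressor that limits B cell responses, stood at 57.4 and 61.5 CPM against 6.26 and 6.69 CPM, 9.22-fold higher (adjusted p 2.14e-06), a call lost with DESeq2 and after thinning.

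Among the other members, Ahnak, a large scaffold protein, stood at 1379 and 2129 CPM against 460 and 381 CPM, 4.24-fold higher (adjusted p 5.72e-22 by edgeR). Bhlhe41, a transcription factor needed for B-1a cells in the mouse, stood at 53.3 and 65.0 CPM against 21.3 and 8.36 CPM, 4.25-fold higher (adjusted p 0.00104), and lost its call without sublibrary 1 (adjusted p 0.333). Itgb1, the integrin beta 1 chain, stood at 123 and 381 CPM against 51.4 and 83.6 CPM, 3.68-fold higher (adjusted p 9.91e-10). Anxa2, a membrane-binding annexin, and Vim, the intermediate filament vimentin, were 3.70-fold and 2.64-fold higher (adjusted p 0.00657 and 7.39e-07), and the call of Anxa2 was lost without sublibrary 1 (0.0668) or 2 (0.127). Ahnak, Itgb1, Anxa2 and Vim are expressed by many cell types and are not specific to B-1 cells. The classical surface marker of B-1a cells did not pass: Cd5 had 16 UMIs in Sox5 positive and 11 in Sox5 negative cells, and stood at 0 and 18.6 CPM against 13.8 and 0 CPM. Spn, which encodes the B-1 surface protein CD43, stood at 12.3 and 34.8 CPM against 26.3 and 30.1 CPM.

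**Figure D4:**
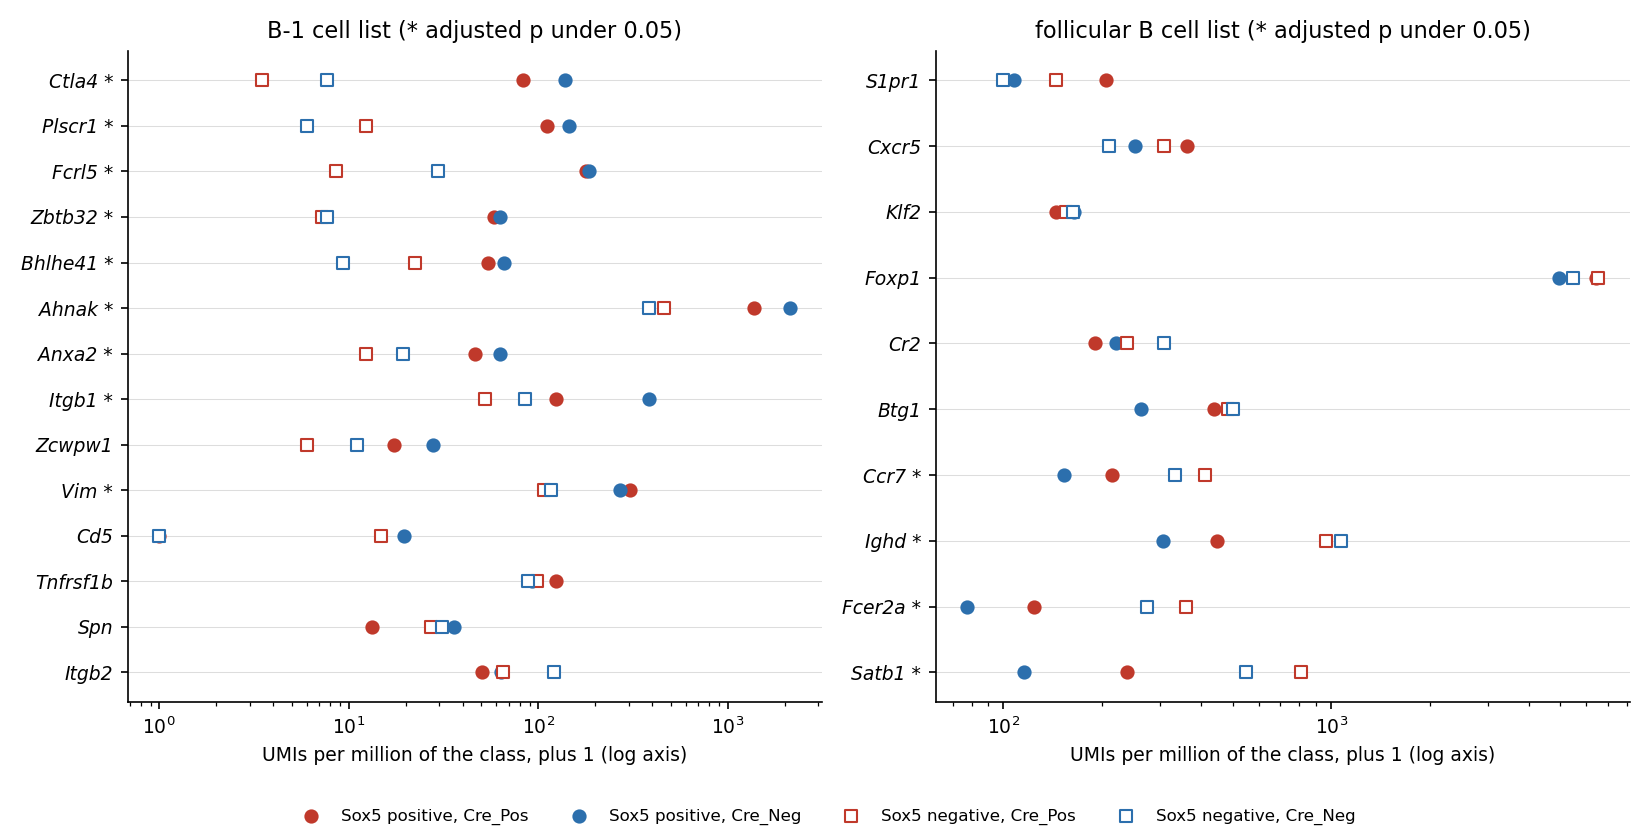
Levels, in CPM plus 1 on a log axis, of the 14 B-1 genes (left) and 10 of the 11 follicular genes (right) in Sox5 positive (filled) and Sox5 negative (open) B cells of the Cre_Pos (red) and Cre_Neg (blue) pools, with asterisks at an adjusted p under 0.05. Ctla4, Plscr1 and Fcrl5 lie higher in both Sox5 positive sums, and Ighd, Fcer2a and Satb1 lie lower.

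Follicular B cell genes went the other way. Of 11 members tested, 5 were lower and none was higher, with a median log2 ratio of -0.51; at an unadjusted p under 0.05, 6 were lower and none higher, and DESeq2 called 4 lower. Ighd, the heavy chain of IgD, stood at 447 CPM in Cre_Pos and 305 CPM in Cre_Neg in Sox5 positive cells, against 963 and 1070 CPM in Sox5 negative cells, 2.70-fold lower (adjusted p 2.85e-10 by edgeR). Fcer2a, the IgE receptor CD23, stood at 123 and 76.6 CPM against 359 and 272 CPM, 3.14-fold lower (adjusted p 3.82e-09). Both genes were lower in the Sox5 positive class in 8 of 8 pairs of pool and sublibrary. Zfp318, which mice need to make IgD transcripts, stood at 119 and 96.3 CPM against 452 and 398 CPM, 3.84-fold lower (adjusted p 1.18e-13). The chromatin organiser Satb1 stood at 238 and 115 CPM against 810 and 547 CPM, 3.93-fold lower (adjusted p 1.43e-16). Ccr7, a chemokine receptor for homing to lymph nodes, was 1.99-fold lower (adjusted p 0.00052), and its call was lost without sublibrary 1 (0.0581). Foxp1, Klf2, Cxcr5, S1pr1, Cr2 and Btg1 did not pass.

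Genes named for the smallest p or the largest ratio came from several functions. Pou2af2, a coactivator of POU factors described in tuft cells, stood at 312 CPM in Cre_Pos and 123 CPM in Cre_Neg in Sox5 positive cells, against 0 and 3.34 CPM in Sox5 negative cells. Those values are 76 UMIs in 4 cells and 106 UMIs in 27 cells, against 0 and 2 UMIs, a pooled ratio of log2 6.85 (4.97 to 9.90) with an adjusted p of 5.87e-35 by edgeR's quasi-likelihood test. Cacna1e, a voltage-gated calcium channel, was among the most abundant of these genes at 1686 and 2536 CPM against 420 and 692 CPM, 3.96-fold higher (adjusted p 1.04e-20). Agbl1, a carboxypeptidase of the tubulin-modifying family, stood at 1412 and 963 CPM against 139 and 272 CPM, 6.03-fold higher (adjusted p 3.27e-31). Atxn1, a chromatin-associated protein, stood at 812 and 994 CPM against 179 and 214 CPM, 4.74-fold higher (adjusted p 1.59e-23). These 3 genes were higher in the Sox5 positive class in 8 of 8 pairs of pool and sublibrary.

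Dnase1l3, a secreted nuclease, stood at 127 and 146 CPM in Sox5 positive cells against 10.0 and 1.67 CPM in Sox5 negative cells, 22.2-fold higher (adjusted p 2.26e-19 by edgeR). Tbc1d9, a protein with a Rab-regulating domain, stood at 164 and 238 CPM against 17.5 and 35.1 CPM, 7.99-fold higher (adjusted p 5.13e-17). Nrp2, a coreceptor for semaphorins and VEGF, stood at 49.2 and 120 CPM against 2.51 and 0 CPM. Ahnak2, a relative of Ahnak, stood at 45.1 and 54.6 CPM against 0 UMIs in both Sox5 negative sums, which is at least 24.4-fold higher when 3 counts over the group are allowed. Lmo7, an actin-associated LIM domain protein, stood at 32.8 and 387 CPM against 5.01 and 13.4 CPM, 21.0-fold higher (adjusted p 1.35e-22), a call lost without the pool block (0.0796). Zfp811, a zinc finger gene, had 27 UMIs in 1 Cre_Pos cell and 62 UMIs in 16 Cre_Neg cells. The rule also named Gm15228, at 24.6 and 102 CPM against 0 and 3.34 CPM, and Tppp, a tubulin-binding protein, at 36.9 and 53.4 CPM against 1.25 and 0 CPM.

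A few further genes were chosen after their values were seen. Syn3, a synapsin, stood at 111 and 129 CPM against 6.26 and 6.69 CPM, 18.5-fold higher (adjusted p 2.98e-16 by edgeR). Csf2rb, the shared receptor chain for GM-CSF, IL-3 and IL-5, stood at 82.1 and 140 CPM against 18.8 and 35.1 CPM, 4.28-fold higher (adjusted p 2.2e-06), a call lost with DESeq2 (0.172), without the pool block and without cells with endothelial or T cell UMIs. Ptpn22, a phosphatase that dampens antigen receptor signals, stood at 562 and 818 CPM against 237 and 242 CPM, 2.95-fold higher (adjusted p 1.87e-11). Itgam, an integrin of B-1 cells in body cavities, stood at 24.6 and 99.8 CPM against 37.6 and 38.4 CPM and did not pass (adjusted p 0.454). The light chain gene Igkc stood at 521 and 595 CPM against 448 and 485 CPM and did not pass (0.632). The surfactant gene Sftpa1 stood at 12.3 and 87.1 CPM against 7.52 and 10.0 CPM (adjusted p 0.00113), a call lost in 7 of 16 alternatives, among them DESeq2, thinning, the fit without doublets and the fit without sublibrary 1 (adjusted p 0.998). Of its UMIs in Sox5 positive cells 10 lay in cells with 8 or more Sox5 UMIs and 68 in cells with 1 to 7. In barcodes with at most 50 UMIs Sftpa1 stood at 1485 and 1444 CPM, and the part of free RNA in its call was not tested.

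Several genes that were lower in Sox5 positive cells rested on few Sox5 negative cells. Siglech, a marker of plasmacytoid dendritic cells, had 0 UMIs in Sox5 positive cells, against 24 UMIs in 1 Cre_Pos and 79 UMIs in 2 Cre_Neg cells of the Sox5 negative class. Fyb, an adaptor of T cells and myeloid cells, had 1 and 1 UMIs, against 118 UMIs in 8 cells and 111 UMIs in 6 cells (adjusted p 1.73e-25 by edgeR). Runx2 had 1 and 16 UMIs, against 80 UMIs in 4 cells and 223 UMIs in 7 cells (adjusted p 4.88e-25), and Slc8a1, a sodium-calcium exchanger, had 3 and 17 UMIs, against 53 UMIs in 4 cells and 153 UMIs in 7 cells (4.23e-14). Grm8, Adgre4, Gpr141 and Lcp2 had 0 UMIs in Sox5 positive cells, and Skap1 and Gm2682 had 1, in Cre_Neg. Lcp2 and Skap1 serve T cell receptor signalling, and the T cell and dendritic markers given above were higher in the same Sox5 negative class. When cells with 2 or more markers of another immune or epithelial type were left out, an alternative chosen after the data were seen, the log2 ratio of Runx2 was 1.53 and that of Slc8a1 was 1.50, both with reversed sign and not past the threshold (adjusted p 0.820 and 0.649). The counts were then 130 higher and 102 lower. Ppm1h, a phosphatase, was also named (log2 ratio -3.05, adjusted p 4.84e-11).

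Over all genes tested, 1.94% were called higher and 2.04% lower, which is the background for the pan B cell list and the lists below. Whether a list with few calls departs from it was not tested. Pan B cell genes mostly did not pass. Of 19 tested, 3 were lower and none was higher, with a median log2 ratio of -0.05; 1 was higher and 5 lower at an unadjusted p under 0.05, and DESeq2 called none. Cd79a, a chain of the B cell receptor, stood at 201 and 193 CPM in Sox5 positive cells against 203 and 202 CPM in Sox5 negative cells. The 3 called members were Bach2, a repressor of plasma cell fate, Mef2c, a transcription factor downstream of the B cell receptor, and Cd72, an inhibitory coreceptor. Bach2 stood at 4350 and 1671 CPM against 5773 and 4869 CPM, 1.91-fold lower (adjusted p 0.000135 by edgeR), and Mef2c at 1584 and 1243 CPM against 2525 and 2101 CPM, 1.59-fold lower (0.0144). Without sublibrary 1 neither was called (0.199 and 0.327), and neither was Cd72 without sublibrary 1, 2 or 3 (0.123, 0.135 and 0.071).

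B cell receptor signalling genes numbered 22, of which 2 were lower and none higher, beside 2.04% lower and 1.94% higher over all genes. Their median log2 ratio was -0.03. Rasgrp3, an activator of Ras, stood at 119 and 87.1 CPM in Sox5 positive cells against 277 and 309 CPM, 2.87-fold lower (adjusted p 1.42e-07 by edgeR), and Vav3, an exchange factor for small GTPases, was the other, a call lost without sublibrary 1 or 2 (0.101 and 0.086). MHC class II genes, which present antigen to T cells, had 3 of 9 members lower and 9 of 9 below 0, with a median of -0.45, and DESeq2 called none of them. Ciita, the master regulator of MHC class II transcription, stood at 230 and 319 CPM against 482 and 664 CPM, 2.01-fold lower (adjusted p 0.000112), a call lost without sublibrary 1 (0.0982). H2-Oa and H2-Ob, the chains of the peptide-loading inhibitor, were the other 2, and without sublibrary 1 none of the 9 was called.

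Among the B cell transcription factors, 1 of 19 was higher and 4 were lower, with a median log2 ratio of -0.01. Irf4, which drives plasma cell differentiation, stood at 431 and 229 CPM against 234 and 140 CPM, 1.79-fold higher (adjusted p 0.00705 by edgeR). The lower ones were Bach2, Mef2c, Irf8 and Lef1, and without sublibrary 1 none of these 5 was called. Plasma cell genes had Irf4 as the only one called of 8, and Prdm1, the repressor that makes plasma cells, stood at 20.5 and 32.5 CPM against 6.26 and 6.69 CPM with an adjusted p of 0.0758. Of 14 genes of NF-kB and costimulation 2 were higher. Cd80, a ligand of CTLA4 and CD28, stood at 90.3 and 203 CPM against 13.8 and 13.4 CPM, 10.5-fold higher (adjusted p 4.03e-15). Traf1, an adaptor of TNF receptors, was 2.62-fold higher (0.0239), a call lost without sublibrary 1 or 4 (0.745 and 0.112). Of 17 immediate early genes the growth factor response gene Myc was higher (2.69-fold, 0.000536) and Egr3 lower (0.0421), and these calls were lost without sublibrary 1 (0.0711 for both) and, for Egr3, without 2 or 4 (0.409 and 0.447). Of 9 interferon response genes none was called by edgeR or DESeq2 or at an unadjusted p under 0.05.

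Homing and adhesion genes had 2 of 15 members higher and 3 lower. Itgb1 and Ccr7 were described above, Cxcr4, the receptor for CXCL12, stood at 73.9 and 52.2 CPM against 164 and 159 CPM, 2.57-fold lower (adjusted p 0.000382 by edgeR), and S1pr3 had 19 UMIs in Sox5 positive and 1 in Sox5 negative cells. The call of Cxcr4 was lost without sublibrary 1 (0.0557). Marginal zone genes had 2 of 10 higher, S1pr3 and the tetraspanin Cd9, and both calls were lost without sublibrary 1 (0.157 and 0.0768), 2 (0.086 and 0.300) or 4 (0.0568 and 0.300). Of 9 transitional and immature B cell genes Cd24a was higher, at 140 and 201 CPM against 72.6 and 83.6 CPM (2.25-fold, 0.00149), a call lost with DESeq2 (0.823), with depth matched cells, without the pool block, without cells with markers of other types and without cells with endothelial or T cell UMIs. Of 7 genes of atypical or age-associated B cells Fcrl5 was higher and Tox lower, Tox on 5 UMIs against 64 and not without sublibrary 4 (0.220), and of 7 memory B cell genes Cd80 was higher and Ighg2b lower. Class-switched heavy chains were scarce: Ighg2b had 1 UMI in Sox5 positive and 40 in Sox5 negative cells, Igha had 2 and 35, Ighg3 had 19 and 10, and Ighg1 and Ighe had 0 in both classes. Of the relatives of Sox5, Sox4 had 6 and 10 UMIs, Sox6 had 5 and 3, Sox13 had 4 and 4, Sox12 had 1 and 1, and Sox11 had none, so Sox5 was the member of these groups that was abundant in B cells.

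Cycling genes were high in few Sox5 positive cells. Mki67, a marker of dividing cells, had 1 UMI in 1 Cre_Pos cell and 163 UMIs in 13 Cre_Neg cells of the Sox5 positive class, against 1 UMI in each pool of the Sox5 negative class (adjusted p 2.92e-14 by edgeR). Top2a, a topoisomerase of dividing cells, had 1 and 104 UMIs against 3 and 3 UMIs (adjusted p 9.65e-07). Both calls rest on the Cre_Neg pool, since a single Mki67 UMI in Cre_Pos gives no ratio that counting error could separate from Sox5 negative cells. Without cells that had a UMI of either gene, the counts were 205 higher and 163 lower. Of the 5 germinal centre genes tested these 2 were the ones called, and the median log2 ratio of the list was -0.53.

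The level of Sox5 within the class went with the levels of several other genes, given here over both pools. In cells with 8 or more Sox5 UMIs, in cells with 1 to 7 and in Sox5 negative cells, Ctla4 stood at 174, 17.2 and 4.30 CPM. Zbtb32 stood at 85.9 CPM in cells with 8 or more and 5.74 CPM in cells with 1 to 7, Cd80 at 244 and 34.4 CPM, and Itgb1 at 445 and 60.2 CPM. Over both pools, Sox5 negative cells stood at 6.44 CPM for Zbtb32 and 65.2 CPM for Itgb1, near the cells with 1 to 7, and at 4.30 CPM for Ctla4 and 13.6 CPM for Cd80, below them. Pou2af2 had 182 UMIs in cells with 8 or more and 0 in cells with 1 to 7, at least 4.80 on the log2 scale when 3 counts over the group are allowed. Syn3 had 138 and 0 UMIs, and Gas7, an actin regulator, had 179 and 1. The follicular genes went the other way, with Ighd at 157 and 726 CPM, Fcer2a at 51.5 and 164 CPM, Satb1 at 52.9 and 336 CPM, and Bach2 at 1197 and 4573 CPM. A few genes were raised in both, such as Dnase1l3 at 155 and 115 CPM and Agbl1 at 1232 and 694 CPM. These are levels with no test, since the limit was set after the values were seen, and median depth also differed, at 7759 and 9278.5 UMIs in cells with 8 or more and 6175 and 5496 UMIs in cells with 1 to 7, in Cre_Pos and Cre_Neg. The mix of pools differed too, with 9 Cre_Pos and 72 Cre_Neg cells at 8 or more, and 26 and 31 cells with 1 to 7. The part of the pool in these levels was not tested.

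**Figure D5:**
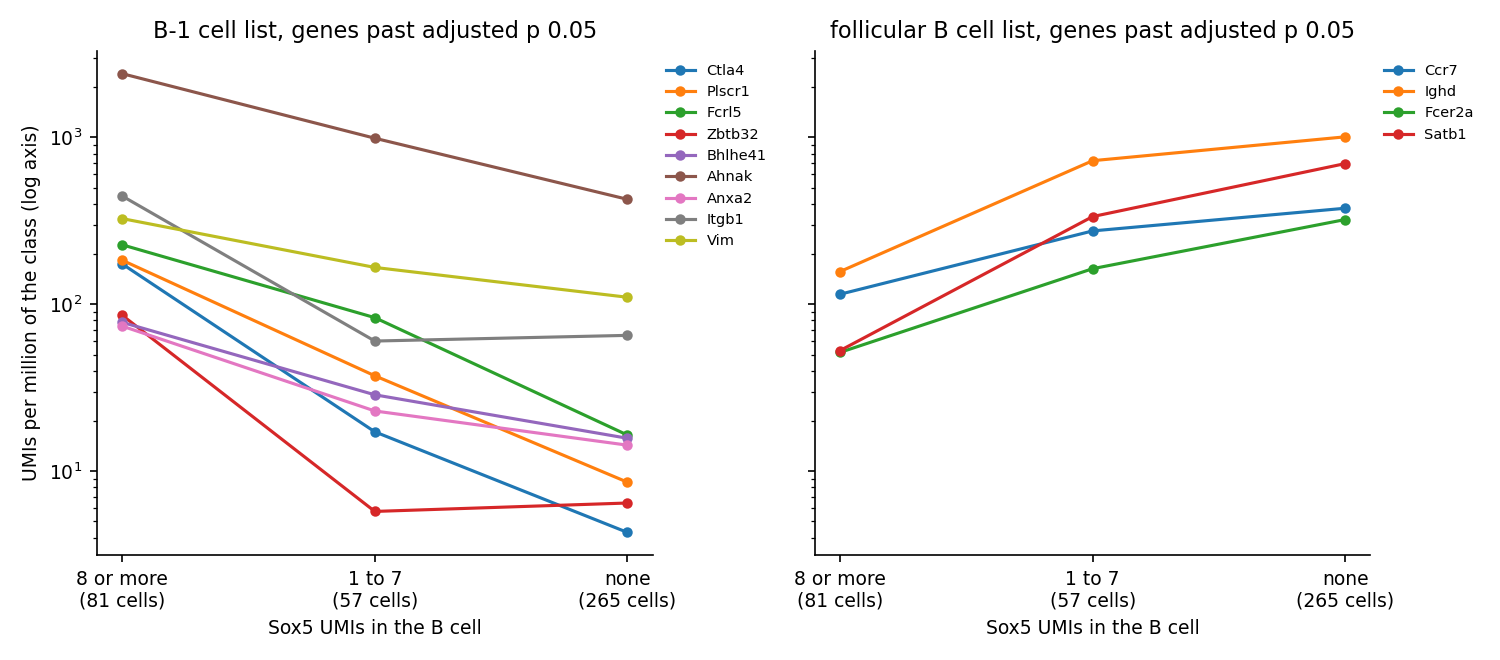
Levels, in CPM on a log axis, of the 9 called B-1 genes (left) and 4 of the 5 called follicular genes (right) in B cells with 8 or more Sox5 UMIs, with 1 to 7 and with none, for both pools together. Ctla4 is at 174 CPM with 8 or more and 17.2 CPM with 1 to 7, and Ighd is at 157 and 726 CPM.

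With only cells of 8 or more Sox5 UMIs set against Sox5 negative cells, 187 genes were higher and 222 lower by edgeR. This alternative used the limit set after the values were seen, on 9 Cre_Pos and 72 Cre_Neg cells, so it is not independent evidence. The B-1 list then had 9 of 14 members higher and a median log2 ratio of 2.47, and the follicular list had 6 of 11 lower and a median of -1.13.

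Immunoglobulin variable segments were examined to see how many different receptors the cells carried, a question chosen after the data were seen. Heavy chain variable (Ighv) UMIs were found in 54 of the 81 cells with 8 or more Sox5 UMIs, in 29 of the 57 cells with 1 to 7 and in 110 of the 265 Sox5 negative cells. A cell was given a leading segment where 1 segment had at least 2 UMIs. Among the cells with 8 or more Sox5 UMIs, 37 had a leading Ighv segment and these were 25 different segments, none in more than 3 cells. The 33 Sox5 negative cells with a leading segment also had 25 different ones. No leading segment was thus shared by most of these cells, though 44 of the 81 cells had none and a leading segment can rest on 2 UMIs. Counts were taken of 4 segments long known from the B-1a cells of mice that bind phosphatidylcholine, Ighv11-2, Ighv12-3, Igkv14-126 and Igkv4-91. Ighv11-2 had UMIs in 3 Cre_Neg cells, Ighv12-3 in 2 Cre_Pos cells and 1 Cre_Neg cell, and Igkv14-126 in 1 Cre_Pos cell and 4 Cre_Neg cells with 8 or more Sox5 UMIs. Cells with 1 to 7 Sox5 UMIs and Sox5 negative cells had 0 UMIs of these 3, Igkv4-91 had 0 UMIs in every class, and 2 cells held Ighv11-2 and Igkv14-126 together. These are 9, 8 and 11 UMIs with no test, and variable segments resemble each other closely enough for reads to be split between them.

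The last comparison set Sox5 positive B cells of Cre_Pos against those of Cre_Neg, as log2 ratios of CPM with no test. Of 5242 genes with at least 30 UMIs, 200 (3.82%) were at least 2-fold higher in Cre_Pos and 458 (8.74%) at least 2-fold lower, and the median was 0.04. The pools differed in how much Sox5 their members had, with 9 of 35 cells in Cre_Pos (25.7%) and 72 of 103 cells in Cre_Neg (69.9%) at 8 or more UMIs. The part of this mix in each ratio was not tested, and for some genes the ratio within cells with 8 or more Sox5 UMIs is given, where the median was still 15 Sox5 UMIs in Cre_Pos and 45 in Cre_Neg.

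Lmo7 had 8 UMIs in Cre_Pos and 333 in Cre_Neg, a log2 ratio of -3.56 (-4.78 to -2.56), and in cells with 8 or more Sox5 UMIs the ratio was -2.58. Limch1, an actin-binding protein, had 0 UMIs in Cre_Pos and 110 in Cre_Neg, at least 10.4-fold lower when 3 counts are allowed. Diaph3, a formin of dividing cells, had 0 and 103 UMIs, at least 9.71-fold lower. Ank3, a membrane scaffold, had 0 and 82 UMIs, at least 7.73-fold lower, and in Sox5 negative cells its log2 ratio was also negative, at -2.92. Mki67 with 1 and 163 UMIs (-5.53, -10.84 to -3.03) and Top2a with 1 and 104 UMIs (-4.88) were low in Cre_Pos as well. The rule further named Specc1, Stxbp6, Gabbr2 and the axon guidance receptor Robo1, with 2, 0, 0 and 2 UMIs in Cre_Pos and 124, 63, 57 and 99 in Cre_Neg. In Sox5 negative cells Stxbp6 (-4.88, -10.2 to -2.25) and Robo1 (-3.42, -8.89 to -0.52) were also lower in Cre_Pos, on few UMIs. Specc1 was higher there (4.04, 1.41 to 9.41). For Lmo7, Limch1, Diaph3, Mki67 and Top2a the intervals in Sox5 negative cells spanned both signs, and Gabbr2 had too few UMIs for a ratio.

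Higher in Cre_Pos were Tmem108, with 27 UMIs in Cre_Pos and 11 in Cre_Neg, or 111 and 12.8 CPM, a log2 ratio of 3.12 (2.06 to 4.28), and Treml2, a myeloid and lymphoid receptor, with 20 and 12 UMIs, or 82.1 and 13.9 CPM (2.56). Crtc1, a coactivator of CREB, had 29 and 20 UMIs (2.36), and Smad7, an inhibitor of TGF-beta signalling, had 31 and 23 UMIs (2.25). The others by the rule were Marchf3, Serinc5, Rfx1, Trpc4ap, Akap12 and Fam3c, with log2 ratios from 1.71 to 2.22. In Sox5 negative cells Tmem108 (1.04, 0.33 to 1.79) and Smad7 (0.86, 0.41 to 1.32) were also higher in Cre_Pos. The intervals of the other genes of this paragraph spanned both signs in Sox5 negative cells. Over both pools, Smad7 had 9 UMIs in cells with 8 or more Sox5 UMIs and 45 in cells with 1 to 7.

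The B-1 list had 11 of 13 members with at least 20 UMIs below 0 in Cre_Pos over Cre_Neg, with a median log2 ratio of -0.39. Within cells with 8 or more Sox5 UMIs the same list had 8 members above 0 and 5 below, with a median of 0.32, and within cells with 1 to 7 it had 3 above and 3 below. The follicular list had 9 of 11 members above 0 and a median of 0.53 over all Sox5 positive cells. Within cells with 8 or more Sox5 UMIs its median was 0.26, and within cells with 1 to 7 it was -0.29. Germinal centre genes were below 0 in 3 of 3 members, with a median of -4.88, and in cells with 8 or more Sox5 UMIs the median was -1.96.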

How the data were processed

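Lungs were measured by SPLiT-seq (Parse Evercode WT v2, per the labels). The deposited values are counts: per the file headers, a matrix of UMIs for each barcode and gene with a table of cells, without normalization. The labels name genome build GRCm39 and the gene table mm10, so no coordinates are given; no source used here names the aligner or counter. Matrix sums equalled the cell table in all 647296 barcodes, gene numbers in 647295. Of these, 16579 had 500 genes and 16541 also at most 15% mitochondrial UMIs. Scrublet (scanpy 1.11.5), run per sublibrary, called 185 doublets, among them 3 Sox5 positive B cells, all from Cre_Neg; doublets were kept here and left out as an alternative.

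Sox5 positive and negative B cells were summed in each pool, and the 4 sums tested with edgeR 4.0.16 (R 4.3.3; TMM, pool as a block, at least 10 UMIs, Benjamini-Hochberg adjustment over all genes tested), with DESeq2 1.42.0 as an alternative. The numbers pair the classes because both come from the same pooled suspension. Genes of the selection rule were not tested, and a few genes counted in the lists are not reported here by name. On simulated counts of this design 90% of genes raised 4-fold and 30% of genes raised 2-fold were called, 96% and 44% of genes lowered as much, and 6 of 10039 unchanged genes. Whether these rates hold for the measured counts, where some genes had most UMIs in few cells, was not tested. Between pools, with 1 pool for each genotype, ratios have exact conditional binomial intervals, shares Clopper-Pearson intervals and levels Poisson intervals, all at 95% and for counting error only, and a class at 0 was set to 3 counts. For comparison at like depth each cell was thinned to 2000 UMIs, leaving out shallower cells. Python 3.11.15, numpy 2.4.6, pandas 2.3.3, scipy 1.17.1 and matplotlib 3.10.9 were used.

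The members, gene lists and tests were chosen with earlier results of these data known. Named genes were, in each direction, the 10 with the smallest p and the 10 with the largest interval bound (at least 50 UMIs, log2 ratio of 1 or more) that had the same sign in both pools, without mitochondrial, ribosomal, haemoglobin and sex-linked genes. Between pools they were 10 each way with at least 30 UMIs and the same sign in all sublibraries with UMIs. Of each list, the 2 highest and 2 lowest members and defining markers were eligible; other list members, the limit of 8 Sox5 UMIs and the variable segments were chosen after values were seen.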

Additional observations from a re-analysis of the deposited data

Results flagged for a closer look

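Over 202 genes of the text and lists, 3 had a ratio of Sox5 positive to Sox5 negative B cells that went one way in every sublibrary of Cre_Pos and the other way in every sublibrary of Cre_Neg. These differences between pools were not tested. For Akap12, a kinase anchoring protein, the log2 ratio in Cre_Pos minus that in Cre_Neg was 2.08: it stood at 94.4 CPM in Sox5 positive cells of Cre_Pos and 22.1 CPM in those of Cre_Neg, against 43.8 and 43.5 CPM in Sox5 negative cells. For Bcl2, which blocks cell death, the difference was -1.12, with 566 and 945 CPM in Sox5 positive cells against 852 and 654 CPM in Sox5 negative cells. For Pou2f2, which encodes the B cell factor OCT2, the difference was -0.55, with 357 and 587 CPM against 433 and 486 CPM. Sox5 positive cells with 8 or more Sox5 UMIs were 25.7% of the class in Cre_Pos and 69.9% in Cre_Neg, and the part of this mix in the 3 differences was not tested. Among 10 groups of 4 sublibraries no value stood apart from the others by Dixon's gap test at its 95% limit.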

How the results depend on the processing

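The shares of Sox5 positive B cells kept their order between pools under each alternative run. Leaving out each sublibrary gave 18.1% to 21.6% of B cells in Cre_Pos and 43.0% to 49.2% in Cre_Neg, and 0.360% to 0.427% and 1.23% to 1.41% of kept cells. With 8 or more Sox5 UMIs as the limit the shares were 5.00% and 32.3% of B cells, and 0.103% and 0.924% of kept cells. In endothelium, thinning to 2000 UMIs lowered the share of cells with a Sox5 UMI to 5.99% in Cre_Pos and 6.60% in Cre_Neg, against 10.3% and 11.1% without thinning. The class comparison, with 205 genes higher and 215 lower, was less stable in its counts. They were 93 and 121 with depth matched cells, 88 and 61 after thinning, 130 and 102 without cells that carried markers of other types, 38 and 18 with DESeq2, and 43 and 23 without the pool as the replicate block. Leaving out each sublibrary gave 100 to 210 higher and 100 to 249 lower, the lowest without sublibrary 1 both times. Cells with no endothelial or T cell UMI, 7 against 14, gave 0 and 0 by edgeR, with 102 genes at an unadjusted p under 0.05 of 2651 tested, and DESeq2 was not run on them. In that setting Anxa2 (-1.04), Bach2 (0.15), Irf4 (-0.44), Itgb1 (-0.46) and Satb1 (1.13) had log2 ratios of the other sign, none past the threshold, and without cells with other markers so did Runx2 (1.53) and Slc8a1 (1.50). The cause was not tested, except that fewer cells and genes entered. Of the 62 named and list genes called, 19 lost the call without sublibrary 1, 10 without 2, 1 without 3 and 6 without 4, and 28 lost it with DESeq2. Between pools, 189 to 234 genes were at least 2-fold higher and 321 to 451 at least 2-fold lower in Cre_Pos without 1 sublibrary. In cells with 8 or more Sox5 UMIs 307 were higher, and the lower count is not given here. That setting rests on 9 Cre_Pos cells with 77492 UMIs in all.

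Limits are the single pool for each genotype, the depletion of CD45 positive cells, the 9 Cre_Pos cells with high Sox5 and the median depth of 6265 and 7927 UMIs a cell, at which low genes such as Cd5 or class-switched chains cannot be placed.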
